A study of Mus musculus with 4 samples.

Results

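Small leucine-rich proteoglycans are secreted matrix proteins, and 10 of their genes (Bgn, Dcn, Aspn, Ecm2, Prelp, Fmod, Lum, Omd, Ogn and Podn) were followed in mouse fibroblasts labelled Calu-KO or WT for the calumenin gene. The members were taken by gene name from a deposited table of 54532 gene rows, and all 10 were found. The 4 RNA sequencing libraries came from cells whose titles call them primary mouse lung fibroblasts, 2 with the genotype Calu-KO and 2 with the genotype Calu-WT, called WT here. Calumenin, the product of Calu, binds calcium in the secretory pathway. The genotype labels speak of a knockout and of WT, while the titles carry KD for the Calu-KO libraries and NC for the WT libraries. What KD and NC stand for is not stated. The sources used here give neither the way Calu was targeted nor the strain, the age or the number of the mice. No treatment is named. Nothing states that 2 libraries of 1 genotype are from different mice or dishes, so the p-values below cover only the spread among these samples, and that spread may be technical.

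A small leucine-rich proteoglycan has a core of leucine-rich repeats, and many members carry chondroitin, dermatan or keratan sulfate chains. They bind collagen fibrils, where they set fibril width and spacing, and several also hold growth factors of the TGF-beta family or bind cell surface receptors. Biglycan (Bgn), decorin (Dcn) and asporin (Aspn) form one class of the family. Fibromodulin (Fmod), lumican (Lum), PRELP (Prelp) and osteomodulin (Omd) form another, and osteoglycin (Ogn, also called mimecan) and podocan (Podn) belong to further classes. Ecm2 encodes a related leucine-rich repeat protein of the matrix.

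Ogn, Prelp and Fmod were higher in Calu-KO cells than in WT cells, while Bgn and Aspn were lower. Ogn was 3.10-fold, Prelp 2.12-fold and Fmod 3.83-fold higher, Bgn was 1.90-fold lower and Aspn 11.6-fold lower, as ratios of mean FPKM (fragments scaled to gene length and library size, which allows levels to be compared between genes). Omd, Ecm2 and Podn had few reads, and Dcn and Lum, abundant in many fibroblast populations, had no read in any library. Each difference was tested by limma on log2(FPKM + 1), in 1 fit over the 11885 genes that averaged 1 FPKM or more, with Benjamini-Hochberg adjustment over all of them and a threshold of 0.05. Of the 10 members 5 were tested, 3 passed as higher and 2 as lower, while of all tested genes 0.942% passed as higher and 1.83% as lower. The groups did not overlap for any of these 5 genes, as was also so for 32.0% of tested genes in the higher direction and 29.7% in the lower. The members were chosen with earlier results of these data known, so these counts are no test of the family.

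Calu itself had 14.9 and 10.9 FPKM in Calu-KO, against 178 and 177 FPKM in WT, and was 13.7-fold lower (log2 change -3.70 ± 0.17 SE, limma adjusted p = 0.00493). The libraries held 16510048 and 16038560 recovered reads in Calu-KO and 15635448 and 16033535 in WT. The deposited FPKM imply library sizes of 1.69e+07 and 1.46e+07 in Calu-KO and 1.64e+07 and 1.66e+07 in WT. Only Calu-KO replicate 2 was thus scaled to a size below its own recovered reads, which raises its FPKM against the other libraries. Replicates differed more in Calu-KO than in WT, with a mean chi-square per gene of 56.8 in Calu-KO and 3.90 in WT. Calu-KO replicate 2 stood apart from the others, with 4.002% of its reads from mitochondrial genes, against 2.43% to 2.53% in the other libraries, and a correlation across tested genes of 0.938 and 0.939 with the WT libraries. The member calls were lost without WT replicate 1 or without WT replicate 2, where the spread comes from the Calu-KO pair alone. Without either Calu-KO replicate the spread comes from the closer WT pair alone, so calls kept there say little about how firm they are. With 2 libraries a group, the lowest two-sided p of an exact permutation test is 0.33. In bulk RNA, fewer cells of a type and less RNA per cell cannot be told apart.

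**Figure D1:**
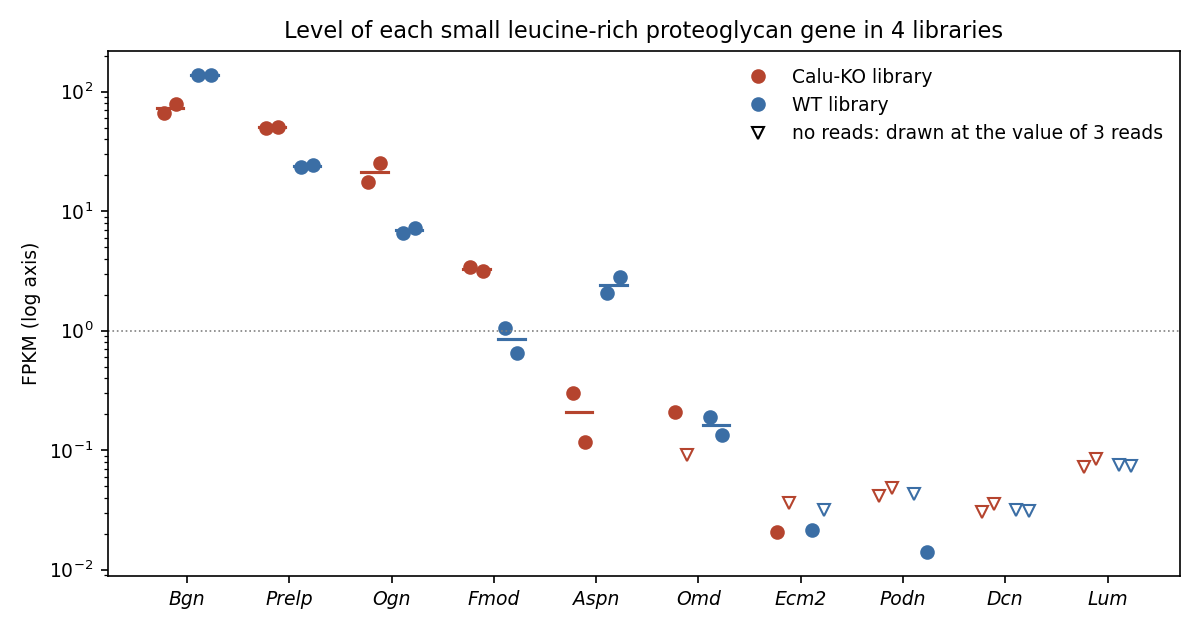
Level of each of the 10 genes in the Calu-KO libraries (red, left of each pair of groups) and the WT libraries (blue), in FPKM on a log axis, with a short line at the mean of each group in which both libraries had reads. Open triangles stand for libraries with no read, drawn at the value of 3 reads, and the dotted line is at 1 FPKM, the mean a gene needed to be tested. Prelp, Ogn and Fmod are higher in both Calu-KO libraries, and Bgn and Aspn are higher in both WT libraries.

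The promoter sequences of 4 members are shown because they carry the main contrasts: Ogn and Aspn, which lie in 1 gene cluster and changed in opposite directions, and Prelp and Bgn, the members with the highest levels. Each runs 5′ to 3′ on the gene's own strand, has 300 bases with 250 before the annotated start, and comes from RefSeq on GRCm38.p6, the patch release of the mm10 build. Capitals mark matches on either strand to 5 motifs. They are the TATA box, searched as TATAAA, and the GC box, the site of SP1-like factors, searched as GGGCGG. The CCAAT box was searched by the letters of its name. The site that AP-1 factors bind was searched as TGANTCA, and the site that TEAD factors bind was searched as CATTCC.
Ogn, chr13:49607765-49608064, plus strand: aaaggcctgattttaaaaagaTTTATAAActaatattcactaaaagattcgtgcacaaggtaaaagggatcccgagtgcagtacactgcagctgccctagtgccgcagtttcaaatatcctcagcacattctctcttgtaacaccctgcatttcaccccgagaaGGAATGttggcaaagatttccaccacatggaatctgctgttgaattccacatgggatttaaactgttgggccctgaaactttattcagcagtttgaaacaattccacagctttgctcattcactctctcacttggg
Aspn, chr13:49544193-49544492, plus strand: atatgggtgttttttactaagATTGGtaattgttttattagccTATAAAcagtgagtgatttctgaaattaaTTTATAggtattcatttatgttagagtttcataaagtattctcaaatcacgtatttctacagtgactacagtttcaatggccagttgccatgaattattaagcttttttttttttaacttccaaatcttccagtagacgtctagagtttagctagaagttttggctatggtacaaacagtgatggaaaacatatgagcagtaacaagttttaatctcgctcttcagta
Prelp, chr1:133921352-133921651, minus strand: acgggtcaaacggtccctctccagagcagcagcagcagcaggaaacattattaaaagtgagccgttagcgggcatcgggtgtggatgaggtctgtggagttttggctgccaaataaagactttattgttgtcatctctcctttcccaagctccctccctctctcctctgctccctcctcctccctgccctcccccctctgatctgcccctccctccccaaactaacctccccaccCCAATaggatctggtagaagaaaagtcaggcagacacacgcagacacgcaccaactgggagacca
Bgn, chrX:73483351-73483650, plus strand: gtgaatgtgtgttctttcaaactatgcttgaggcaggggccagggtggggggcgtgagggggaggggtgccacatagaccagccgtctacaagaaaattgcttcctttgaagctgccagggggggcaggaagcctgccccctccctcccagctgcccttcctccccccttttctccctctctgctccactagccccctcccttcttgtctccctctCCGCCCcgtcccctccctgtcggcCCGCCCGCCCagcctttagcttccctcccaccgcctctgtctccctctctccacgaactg

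A window was found for 8 of the 10 members. The Ogn window holds TATAAA on both strands in 1 overlapping stretch, starting 229 and 227 bases before the start, and CATTCC on the opposite strand 86 bases before it. The Aspn window holds TATAAA once on each strand and CCAAT on the opposite strand. The Prelp window holds CCAAT 15 bases before the start, and the Fmod window, not printed, holds CCAAT 34 bases after it. The Bgn window holds 3 matches to the GC box on the opposite strand, of which 2 overlap. GGGCGG also matched in a Podn window (2 matches) and in the Ecm2 window (1 match), neither printed. TGANTCA matched in 0 of the members' windows. Among all 32851 promoter windows of the same length, TATAAA was found in 13.6%, GGGCGG in 35.7%, CCAAT in 37.4%, TGANTCA in 7.81% and CATTCC in 14.7%. Base composition spanned a wide range, with 31.0% G and C in Aspn, 42.3% in Ogn, 51.0% in Fmod, 55.3% in Prelp and 63.7% in Bgn, around a median of 52.7% over all windows. Members that were not tested had 37.7% in Omd, 41% in Ecm2, and 77% and 63% in the windows of Podn. The searches describe these letters only and say nothing of binding.

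Biglycan was the most abundant member in both genotypes. Bgn (ENSMUSG00000031375, mm10 chromosome X, 73483602 to 73495933, plus strand) had 66.8 and 78.9 FPKM in Calu-KO replicates 1 and 2, against 139 and 138 FPKM in WT replicates 1 and 2. Both Calu-KO libraries lay far below the WT libraries, and the WT libraries were nearly equal. The means were 72.8 ± 8.56 FPKM in Calu-KO and 138 ± 0.801 FPKM in WT (SD, n = 2 each), with a log2 change of -0.92 ± 0.13 (SE, limma adjusted p = 0.0412). These levels rest on 6886 and 7030 reads in Calu-KO and 13865 and 13952 in WT, so counting error is small beside the spread of the Calu-KO pair. The adjusted p was 0.353 without WT replicate 1, 0.327 without WT replicate 2 and 0.0503 with a variance prior that does not follow expression level.

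Asporin, another member of biglycan's class, is named for a run of aspartate residues near its start and is known to bind collagen and TGF-beta. Aspn (ENSMUSG00000021388, chromosome 13, 49544443 to 49567565, plus strand) had 0.302 and 0.116 FPKM in Calu-KO, from 12 and 4 reads, against 2.05 and 2.81 FPKM in WT, from 79 and 110 reads. Both Calu-KO libraries were close to no expression, and both WT libraries were above 1 FPKM. The means were 0.209 ± 0.131 FPKM in Calu-KO and 2.43 ± 0.540 FPKM in WT (SD, n = 2 each), and the log2 change was -1.50 ± 0.21 (SE, limma adjusted p = 0.0412). On summed reads, scaled for library size, Calu-KO held 0.0886 of the WT level (exact binomial 95% interval 0.0496 to 0.148, counting error only). Adding 1 FPKM understates the change of so low a gene, and the gene entered the test only through its WT level. The adjusted p was 0.0930 without WT replicate 1, 0.147 without WT replicate 2, 0.0621 with 0.1 FPKM added in place of 1, and 0.0541 after rescaling to equal total reads.

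Decorin, also of that class, had no read in any of the 4 libraries. Dcn (ENSMUSG00000019929, chromosome 10, 97479609 to 97518143, plus strand) was therefore below the value of 3 reads, at most 0.0304 and 0.0352 FPKM in Calu-KO and 0.0314 and 0.0309 FPKM in WT. Its neighbour lumican, a keratan sulfate proteoglycan, was also without reads, and Lum (ENSMUSG00000036446, 97565128 to 97572703, plus strand) was at most 0.0725 and 0.0839 FPKM in Calu-KO and 0.0748 and 0.0738 FPKM in WT. The 13 other gene rows within 500 kb of these genes, 4 of them protein-coding, had no reads either. A row without reads was common, at 55.1% of all rows and 29.5% of protein-coding rows.

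Prelp, whose product has an arginine- and proline-rich end that binds heparan sulfate and is found near basement membranes, was the second most abundant member. Prelp (ENSMUSG00000041577, chromosome 1, 133910304 to 133921414, minus strand) had 49.98 and 51.0 FPKM in Calu-KO, from 3055 and 2694 reads, against 23.4 and 24.3 FPKM in WT, from 1384 and 1461 reads. In the deposited FPKM, replicates lay close together in both genotypes and the groups were well apart. The closeness of the Calu-KO pair depends on the scaling of Calu-KO replicate 2 described above. The means were 50.5 ± 0.720 FPKM in Calu-KO and 23.9 ± 0.670 FPKM in WT (SD, n = 2 each), with a log2 change of 1.05 ± 0.10 (SE, limma adjusted p = 0.0266). Of the 5 tested members it had the lowest standard error, and its log2 change stayed within 0.95 to 1.08 under all 13 alternative settings. The adjusted p was 0.221 without WT replicate 1 and 0.191 without WT replicate 2. An antisense gene, Gm15851, shares 350 exon bases with Prelp (9.68% of its exons). Whether counting used the strand is not stated, so reads within these shared bases cannot be assigned to 1 of the 2 genes. Gm15851 stood at 0 and 0.414 FPKM in Calu-KO, from 0 and 4 reads, and at 0 in both WT libraries.

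Fibromodulin, a collagen-binding keratan sulfate proteoglycan of the same class, lies beside Prelp on chromosome 1 but was much less abundant. Fmod (ENSMUSG00000041559, 134037254 to 134048277, plus strand) had 3.40 and 3.15 FPKM in Calu-KO, from 190 and 152 reads, against 1.05 and 0.656 FPKM in WT, from 57 and 36 reads. Both Calu-KO libraries were above 3 FPKM, while 1 WT library was below 1 FPKM. The means were 3.27 ± 0.179 FPKM in Calu-KO and 0.854 ± 0.281 FPKM in WT (SD, n = 2 each), and the log2 change was 1.21 ± 0.18 (SE, limma adjusted p = 0.0443). On summed, scaled reads the ratio was 3.85 (exact binomial 95% interval 3.05 to 4.89). Like Aspn, Fmod entered the test through 1 group, here Calu-KO. It was the tested member closest to the threshold. Its adjusted p was 0.113 without WT replicate 1, 0.234 without WT replicate 2, 0.0735 after rescaling to equal total reads, 0.0581 with 0.1 FPKM added in place of 1, and 0.0507 with a filter at 0.5 FPKM.

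Osteomodulin, a bone-associated member of that class, had 8 and 0 reads in Calu-KO and 7 and 5 reads in WT. Omd (ENSMUSG00000048368, chromosome 13, 49582462 to 49592822, plus strand) thus stood at 0.210 and 0 FPKM in Calu-KO and at 0.190 and 0.134 FPKM in WT. The groups overlapped, and the ratio on summed, scaled reads was 0.698 with an exact binomial 95% interval of 0.247 to 1.86, so no difference was detectable at this depth.

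Osteoglycin is a collagen-binding member of a further class, first isolated from bone. Ogn (ENSMUSG00000021390, chromosome 13, 49608046 to 49624501, plus strand) had 17.5 and 25.3 FPKM in Calu-KO, from 758 and 949 reads, against 6.62 and 7.20 FPKM in WT, from 278 and 307 reads. Both Calu-KO libraries were above both WT libraries, and the Calu-KO pair was the more spread. The means were 21.4 ± 5.54 FPKM in Calu-KO and 6.91 ± 0.414 FPKM in WT (SD, n = 2 each), with a log2 change of 1.48 ± 0.19 (SE, limma adjusted p = 0.0380). The change was 1.22 without Calu-KO replicate 2 and 1.73 without Calu-KO replicate 1. The adjusted p was 0.118 without WT replicate 1 and 0.108 without WT replicate 2.

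Ecm2 and Podn were nearly silent. Ecm2 (ENSMUSG00000043631, chromosome 13, 49504810 to 49532789, plus strand) had 2 and 0 reads in Calu-KO and 2 and 0 reads in WT. Podn (ENSMUSG00000028600, chromosome 4, 108014791 to 108096445, minus strand) had 0 reads in both Calu-KO libraries and 0 and 1 in WT. Neither could be compared at this depth.

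**Figure D2:**
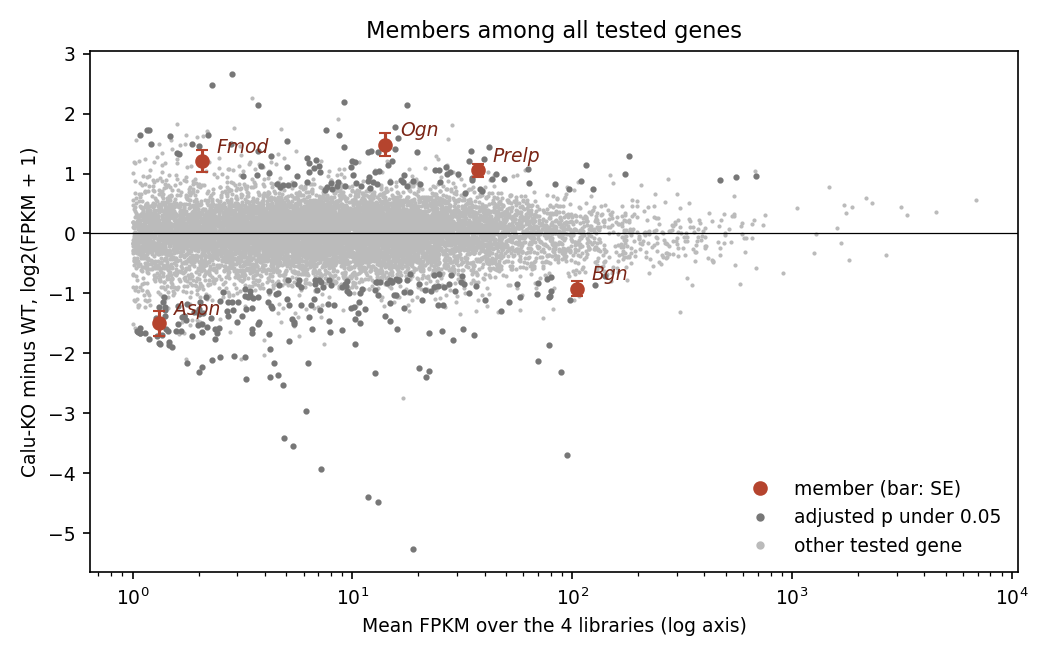
Log2 change of Calu-KO over WT against the mean FPKM of the 4 libraries (log axis) for every tested gene, with genes past the threshold in dark grey and the 5 tested members in red with SE bars. The members span the range of levels, with Bgn at -0.92 among abundant genes and Aspn at -1.50 just above the filter, while Fmod at 1.21, Ogn at 1.48 and Prelp at 1.05 lie above 0.

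The makeup of the family differed between the genotypes. Summed over the 10 genes, FPKM was 138 and 158 in Calu-KO and 172 and 173 in WT, with means of 148 ± 14.3 in Calu-KO and 173 ± 0.496 in WT (SD, n = 2 each). Leaving out Bgn, the sum was 71.4 and 79.6 FPKM in Calu-KO and 33.3 and 35.1 FPKM in WT, 2.20-fold higher in Calu-KO. Bgn was left out with its fall known, and most of the remaining sum is Prelp and Ogn, so it mainly repeats their changes. Bgn made up 49.1 ± 1.03% of the summed FPKM in Calu-KO and 80.2 ± 0.695% in WT, and Prelp 34.2 ± 2.82% in Calu-KO and 13.8 ± 0.348% in WT. Ogn took 14.3 ± 2.35% in Calu-KO and 4.01 ± 0.228% in WT, and the other members held small shares in both genotypes. Shares move together by construction, so they describe the makeup and add no further test.

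**Figure D3:**
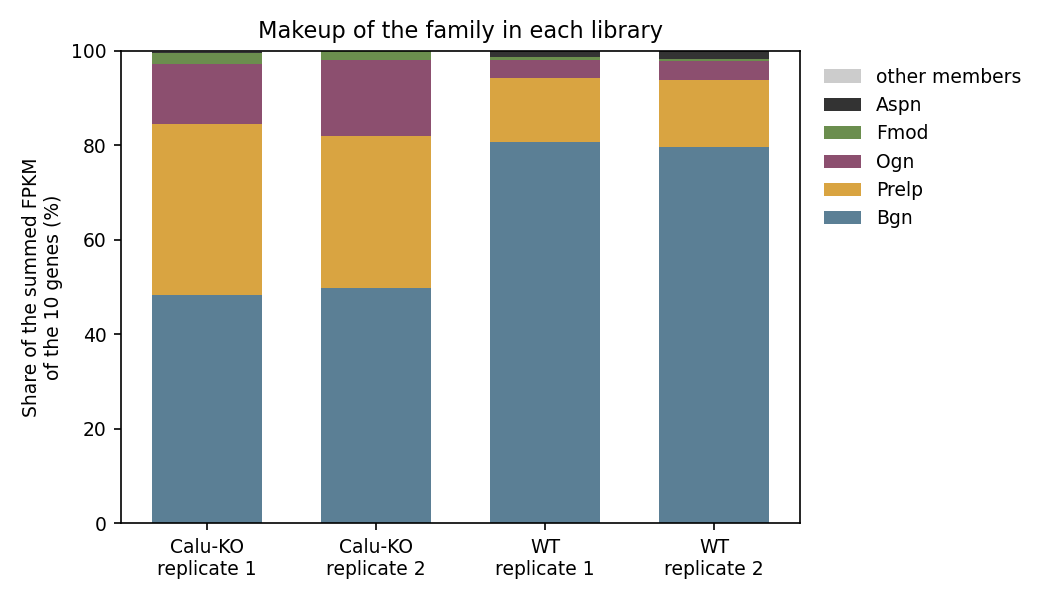
Share of each gene in the summed FPKM of the 10 genes, in percent, for the 2 Calu-KO libraries (left) and the 2 WT libraries (right). Bgn holds 49.1% on average in Calu-KO and 80.2% in WT, while the Prelp and Ogn segments are wider in Calu-KO.

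Ratios between members within a library showed the same shift without any scaling between libraries. Bgn over Prelp was 1.34 and 1.55 in Calu-KO and 5.94 and 5.66 in WT. Ogn over Bgn was 0.262 and 0.321 in Calu-KO and 0.0477 and 0.0523 in WT. Ogn over Aspn, a pair of genes in 1 cluster, was 57.9 and 218 in Calu-KO and 3.23 and 2.56 in WT, with the Calu-KO values resting on 12 and 4 reads of Aspn. By contrast Prelp over Ogn, a pair that rose together, was 2.86 and 2.02 in Calu-KO and 3.53 and 3.38 in WT.

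Several members lie side by side in the genome. Ecm2, Aspn, Omd and Ogn follow each other within 119.692 kb of chromosome 13, all on the plus strand and inside the span of Cenpp, a centromere protein gene on the opposite strand. Aspn lies 14.897 kb before Omd and Omd 15.224 kb before Ogn, so that a member that fell and a member that rose flank one with almost no reads. Cenpp shares 7 exon bases with Aspn and 0 with the other 3 members. It had 6.41 and 5.39 FPKM in Calu-KO and 3.88 and 5.35 FPKM in WT, and did not pass (log2 change 0.31 ± 0.18, limma adjusted p = 0.334). The nearby genes Nol8 (0.15), Ippk (0.03), Tes3-ps (0.23) and Iars (-0.07) did not pass either. Of the 9 tested genes within 500 kb of Ogn that are no members, 0 were called by limma in either direction, 4 had an unadjusted p under 0.05, and voom called 1, Ninj1, lower. Here and below, counts by unadjusted p or by voom stand without the share over all tested genes, so they are no result about a set. Unadjusted p-values under 0.05 were common among all tested genes. In the limma fit Fam20b, for example, had an unadjusted p of 0.0496 and an adjusted p of 0.201. Over all members 36 other genes lie within 100 kb, of which 26 were not tested and stood at 0.862 FPKM or less in every library.

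Prelp and Fmod are 115.84 kb apart on chromosome 1, and both rose. Btg2, an antiproliferative gene 26.893 kb from Fmod, was at 2.95 and 3.47 FPKM in Calu-KO and 2.07 and 3.07 FPKM in WT (log2 change 0.25 ± 0.19, limma adjusted p = 0.443). Within 500 kb of Fmod, 10 non-members were tested and 1 was lower, Cyb5r1, named after its value was seen, at -0.96 ± 0.11 (limma adjusted p = 0.0316, but 0.2995 without WT replicate 1 and 0.229 without WT replicate 2). Around Podn, Scp2 (0.24), Cpt2 (0.34) and Echdc2 (-0.37) did not pass.

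Around Bgn, 16 other genes within 500 kb were tested and 4 were lower and 0 higher, against 2.47% lower among the 365 tested non-members of the whole X chromosome. That share rests on 9 lower genes and includes the 4 near Bgn, so the figures are not independent. These 4, named after their values were seen, were Slc6a8, Renbp, Pnma5 and Xlr3a. Slc6a8, which encodes the creatine transporter, had 22.4 and 22.5 FPKM in Calu-KO and 40.4 and 40.0 FPKM in WT. Pnma5 had 1 and 0 reads in Calu-KO and 671 and 812 in WT, and Xlr3a had 0 reads in both Calu-KO libraries and 230 and 305 in WT. Pnma5 and Xlr3a reached the tested level only through WT, so they could be called only as lower. The gene nearest to Bgn with a tested level, Haus7, 24.558 kb away, was at 22.8 and 22.3 FPKM in Calu-KO and 34.2 and 37.3 FPKM in WT and did not pass (log2 change -0.64 ± 0.11, limma adjusted p = 0.0580). Over these 16 genes the log2 change had a median of -0.18, against 0.05 over the X chromosome. Without WT replicate 1 or 2 the calls of Pnma5 and Xlr3a remained, while the limma adjusted p was 0.386 and 0.362 for Slc6a8 and 0.337 and 0.4305 for Renbp. By limma voom on recovered reads 5 of the 16 were lower, Haus7 among them, and 2 higher, L1cam and Pdzd4.

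**Figure D4:**
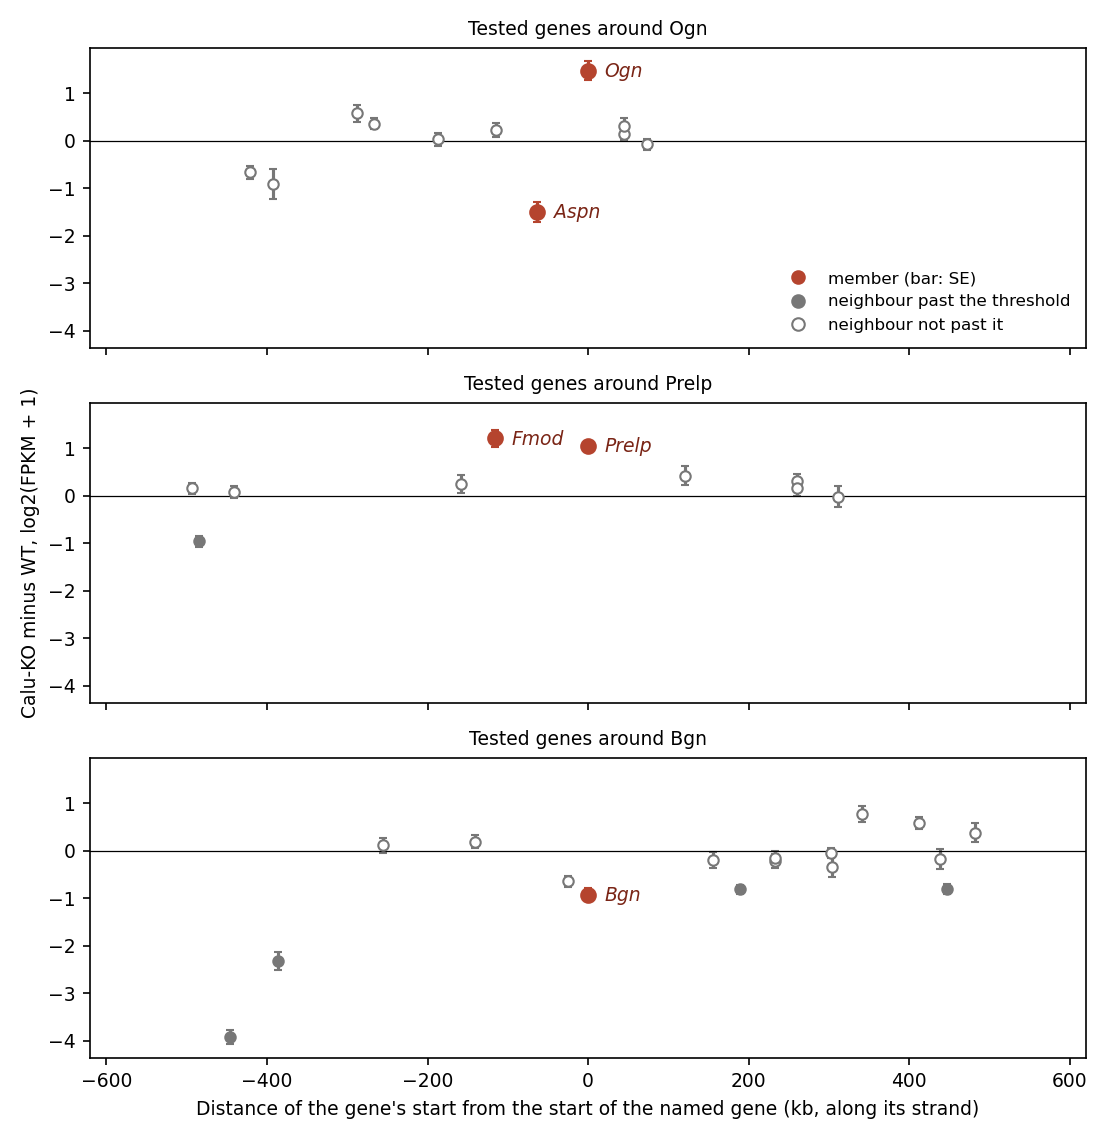
Log2 change of Calu-KO over WT of the tested genes within 500 kb of Ogn, Prelp and Bgn, against the distance of each gene's start along the strand of the named gene, in kb, with SE bars. Members are red, other genes past the threshold are filled grey and the rest are open; Ogn and Aspn lie on opposite sides of 0 among neighbours that did not pass, and 4 genes near Bgn are filled below 0.

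For each tested member the 3 protein-coding genes with the most similar profile were found by Euclidean distance between log2(FPKM + 1) profiles over the 4 libraries, centred on their means. For Ogn they were Amot (distance 0.0575), Nova1 (0.147) and Tmem156 (0.163). For Prelp they included Bzw2 (0.0601) and Gm9493 (0.0939), and for Fmod they were St3gal5 (0.166), Akr1b3 (0.207) and Lpar4 (0.255). For Bgn they included Parvb (0.0441) and Itgb7 (0.0642), and for Aspn they were Havcr2 (0.0893), Ifi207 (0.110) and Cox6a2 (0.139). With 4 libraries such likeness is a description only.

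Of 7 further genes of the family, 2 were tested and 0 passed by limma, while 1 had an unadjusted p under 0.05 and was called lower by voom, Tsku. Podnl1, the podocan-like gene, had 7.50 and 6.86 FPKM in Calu-KO and 6.14 and 6.70 FPKM in WT (log2 change 0.14 ± 0.12, limma adjusted p = 0.488). Tsku, a secreted leucine-rich repeat protein gene, had 3.45 and 3.84 FPKM in Calu-KO and 6.05 and 6.41 FPKM in WT, with no overlap and no call (-0.64 ± 0.12, limma adjusted p = 0.0733). Chad had 0.563 and 0.489 FPKM in Calu-KO and 0.582 and 0.0358 FPKM in WT. Optc and Nyx stood below 0.2 FPKM in all libraries, and Kera and Epyc had no reads.

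The sugar chains are built by enzymes whose genes were read from the same fit. Of 23 genes of chondroitin and dermatan sulfate synthesis 17 were tested and 0 passed by limma (5 had an unadjusted p under 0.05, and voom called 1, Dse, the dermatan sulfate epimerase gene, higher), with a median log2 change of 0.03 and a range of -0.39 to 1.04, against a median of 0.0072 over all tested genes. Dse, named after its value was seen, had 12.9 and 14.0 FPKM in Calu-KO and 8.78 and 8.87 FPKM in WT. By mean FPKM over the 4 libraries the most abundant genes of the list were Chpf (-0.23) and Chsy1 (0.32), although B3gat3 was above Chsy1 in every library except Calu-KO replicate 2. Of 9 keratan sulfate genes 2 were tested, B4galt1 (0.04) and Chst1 (-0.54, limma adjusted p = 0.119). Of these 0 passed by limma, 1 had an unadjusted p under 0.05, and voom called 0. B3gnt7, Chst4 and Fut8 had no reads. Of 9 genes that supply sulfate and sugar donors 8 were tested and 0 passed by limma (median 0.08), with Ugdh at 0.04 and Slc35b2 at 0.63 (limma adjusted p = 0.0647). There 3 had an unadjusted p under 0.05, and voom called 3 higher, which were Impad1, Slc26a2 and Slc35b2.

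Among 14 genes of proteases that process or cut these proteoglycans or of protease enhancers (Pcolce and Pcolce2), 6 were tested and 1 was higher. Adamts5, which cleaves aggrecan and other proteoglycans, had 6.52 ± 1.35 FPKM in Calu-KO and 2.05 ± 0.353 FPKM in WT (SD, n = 2 each; log2 change 1.29 ± 0.18, limma adjusted p = 0.0427). Its adjusted p was 0.1915 without WT replicate 1 and 0.118 without WT replicate 2. Pcolce stood at -0.05, and Htra1 at 0.48 (limma adjusted p = 0.0910). Mmp14, a membrane-bound metalloproteinase gene named after its value was seen, had 29.4 and 34.4 FPKM in Calu-KO and 51.8 and 51.7 FPKM in WT. It did not pass (-0.69 ± 0.12, limma adjusted p = 0.0647) but was called lower by voom. Of 22 genes of collagens and other matrix proteins that they bind, 14 were tested and 1 was lower, with a median of -0.14. There 5 had an unadjusted p under 0.05, and voom called Col1a2 higher and Col3a1 and Col6a2 lower. Col3a1, which encodes a fibrillar collagen that biglycan and decorin bind, had 11.9 and 12.2 FPKM in Calu-KO and 38.9 and 39.4 FPKM in WT (-1.62 ± 0.10, limma adjusted p = 0.0115, but 0.0558 without WT replicate 1 and 0.0635 without WT replicate 2). Col1a1 (0.40, limma adjusted p = 0.208) and Col1a2 (0.67, limma adjusted p = 0.0721) did not pass.

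Of 23 genes of receptors and growth factors tied to these proteoglycans 14 were tested, 1 was higher and 1 lower, with a median of -0.15. There 7 had an unadjusted p under 0.05, and voom called Wisp1 and Met higher and Tgfb1 lower. Met, named after its value was seen, had 16.4 and 24.9 FPKM in Calu-KO and 7.97 and 8.44 FPKM in WT. It did not pass by limma (1.20 ± 0.21, limma adjusted p = 0.0613). Tgfb1, whose product binds biglycan, decorin and asporin, had 4.55 and 4.25 FPKM in Calu-KO and 9.59 and 9.15 FPKM in WT (-0.94 ± 0.11, limma adjusted p = 0.0331, but 0.313 without WT replicate 1 and 0.264 without WT replicate 2). Wisp1 (Ccn4), a matricellular protein gene, averaged 46.3 ± 6.39 FPKM in Calu-KO and 23.7 ± 1.46 FPKM in WT (SD, n = 2 each; 0.93 ± 0.14, limma adjusted p = 0.0451, but 0.374 without WT replicate 1 and 0.262 without WT replicate 2). Itgb1 (-0.02) and Lrp1 (-0.77, limma adjusted p = 0.143) did not pass. Among 28 other proteoglycan core protein genes 12 were tested and 1 was lower. Vcan, which encodes the large chondroitin sulfate proteoglycan versican, had 1.39 and 2.12 FPKM in Calu-KO and 8.22 and 8.83 FPKM in WT (-1.80 ± 0.17, limma adjusted p = 0.0266, but 0.0565 without WT replicate 1 and 0.0746 without WT replicate 2), while Gpc1 stood at 0.01 and Sdc4 at -0.17.

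Markers of cell types were summed by list. The fibroblast list summed to 1620 and 1886 FPKM in Calu-KO and 1645 and 1623 FPKM in WT, and 0 of its 7 tested genes of 8 passed by limma (1 had an unadjusted p under 0.05, and voom called 1, Col1a2, higher), although Thy1 stood below 0.14 FPKM in all libraries. The 6 factors of lung mesenchyme summed to 0 and 0.198 FPKM in Calu-KO and 0.776 and 0.481 FPKM in WT, with Tcf21 and Tbx4 at 0, so the lung origin rests on the labels. Most of the WT sums was Gata6, at 0.677 and 0.398 FPKM from 62 and 37 reads, against 0 reads in both Calu-KO libraries. Most of the sum in Calu-KO replicate 2 was Foxf1, from 5 reads. Macrophage markers summed to 4.17 and 4.12 FPKM in Calu-KO and 11.1 and 12.2 FPKM in WT, and 1 of 2 tested genes of 7, Lyz2, was lower, while Adgre1, Itgam and Mrc1 were at 0. Epithelial markers summed to 0.446 and 0.213 FPKM in Calu-KO and 3.17 and 3.38 FPKM in WT, and the 1 gene tested of 6, Krt8, was lower but reached the tested level only through WT, with Epcam and Sftpc at 0. Cartilage and bone markers summed to 18.5 and 18.9 FPKM in Calu-KO and 10.9 and 12.1 FPKM in WT, and 1 of 2 tested genes of 7, Runx2, a bone transcription factor gene, was higher at 13.9 and 14.4 FPKM in Calu-KO and 7.53 and 8.02 FPKM in WT (0.79 ± 0.11, limma adjusted p = 0.0412). Runx2 made up most of that sum, while Acan, Col2a1, Alpl and Bglap stood below 0.2 FPKM in every library and Sp7 averaged 0.745 FPKM in Calu-KO and 0.793 FPKM in WT. Of 7 pericyte and smooth muscle markers 3 were tested, and Mcam was higher, at 18.4 and 12.97 FPKM in Calu-KO and 2.42 and 2.77 FPKM in WT, and Des lower. Cspg4, the most abundant of that list, had 30.1 and 45.2 FPKM in Calu-KO and 36.7 and 34.5 FPKM in WT and did not pass (0.05). Rgs5 had no reads, and Acta2, Myh11 and Tagln stood below 0.2 FPKM in every library. Without WT replicate 1 or 2 the call of Mcam remained and those of Lyz2, Krt8, Runx2 and Des were lost, with limma adjusted p-values of 0.0655 and 0.0805 for Lyz2, 0.0930 and 0.0632 for Krt8, 0.435 and 0.361 for Runx2, and 0.241 and 0.361 for Des. In the mesothelial list Msln was the 1 gene tested of 4, at 25.2 and 22.1 FPKM in Calu-KO and 33.0 and 30.4 FPKM in WT. It did not pass (-0.41, limma adjusted p = 0.141), and Wt1, Upk3b and Lrrn4 stood below 0.2 FPKM in every library. Of the 5 endothelial and 3 tendon markers 0 reached the tested level. The part of these cell types in the members' differences was not tested.

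**Figure D5:**
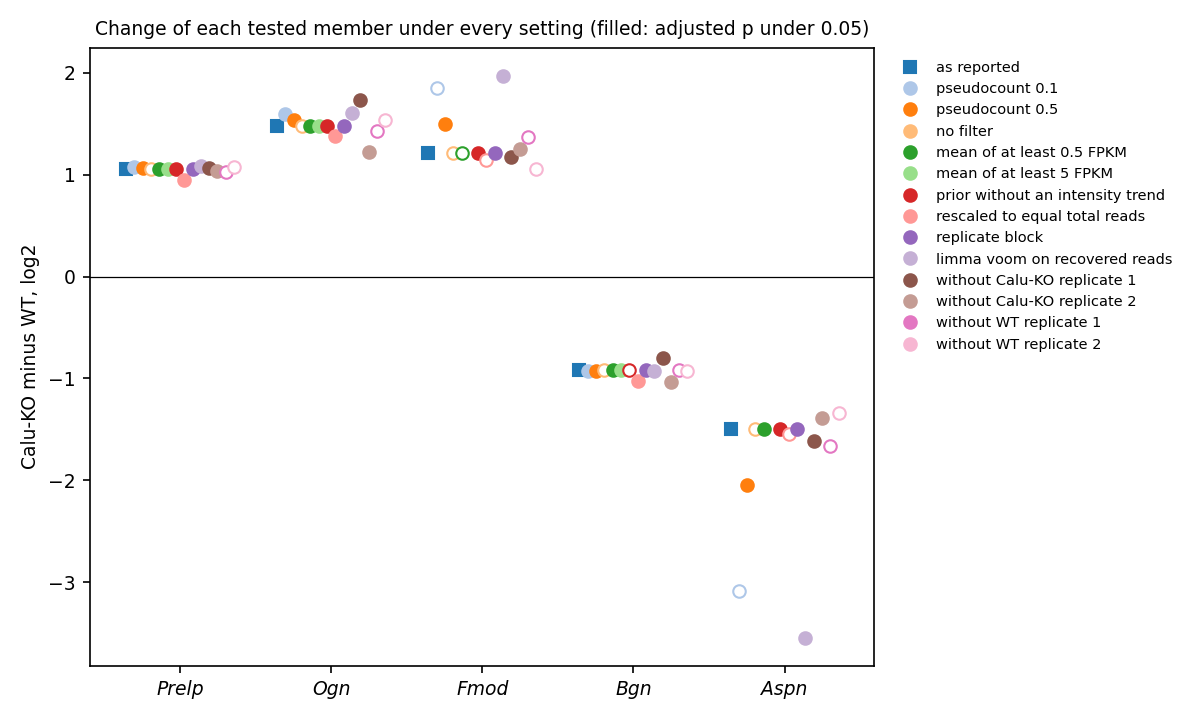
Log2 change of each tested member as reported (squares) and under the alternative settings (circles), filled where the adjusted p was under 0.05. All 5 keep their direction throughout, Aspn and Fmod move most when the added constant or the test changes, and the points without WT replicate 1 or 2 are open for every member.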

How the data were processed

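Per the labels' protocols, total RNA gave paired-end Illumina reads, and HISAT2 2.0.5 aligned them, to mm10 per the submitters' processing notes. For the counter, its annotation and its use of strand, nothing was given in the sources used here. The authors deposited FPKM values for 54532 gene rows in 4 columns, all of which were used (0 value columns were left out), with each gene's length and coordinates. Multiplying FPKM by gene length gave whole reads for 100% of values within a tolerance of 0.001, so reads were recovered. At that depth 3 reads in a gene of 1 kb are worth 0.177 to 0.205 FPKM. The test of Calu-KO against WT used limma 3.58.1 (R 4.3.3) on log2(FPKM + 1), two-sided, with an intensity-dependent variance prior, for genes averaging 1 FPKM or more, and adjusted p-values are limma's. The log2 scale with 1 FPKM added understates the change of low genes. The members and gene lists were chosen with earlier results of these data known. Named genes are the members, their relatives, Calu, up to 4 called and 2 abundant genes per list, genes within 100 kb (by count where below the tested level), and 3 genes of like profile per member, of which some are not reported here. The CCAAT box, the AP-1 site and the TEAD site were added after the data were seen. Promoters are from RefSeq (GRCm38.p6). Intervals are exact binomial at 95% and cover counting error only. Alternatives changed the added constant, filter, variance prior, scaling, test, block and libraries.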

Additional observations from a re-analysis of the deposited data

How the results depend on the processing

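The 5 tested members kept their direction under all 13 alternatives that could test them, and their calls did not all hold. Of 47 named genes recomputed, 601 values by setting included 489 on the same side of the threshold, 71 that lost it, 26 that gained it and 15 of opposite sign. Genes called higher numbered 112 as reported, 0 with no filter (3886 had an unadjusted limma p under 0.05), 45 after rescaling to equal total reads, 181 with the replicate number as a block, 361 with limma voom on recovered reads, and 8 to 2926 with 1 library left out. Genes called lower numbered 217 as reported, 0 with no filter, 130 with a filter at 5 FPKM, 469 with voom, and 34 to 2805 with 1 library left out, while the block gave 312. Same-numbered replicates, tied by number alone, deviated with a correlation of 0.0153. Members called higher were 3, and 0 with no filter. Fmod also failed to pass with 0.1 FPKM added, with a filter at 0.5 FPKM and after rescaling, and it does not reach the filter at 5 FPKM. Which of the higher members passed also depended on the library left out. Members called lower were 2, and 1 with 0.1 FPKM added, with the filter at 5 FPKM (which Aspn does not reach), with a prior without a trend or after rescaling, 0 with no filter, and 0 to 2 with 1 library left out. As shares of reads rather than of FPKM, Bgn held 64.0% in Calu-KO and 88.2% in WT, Prelp 26.4% in Calu-KO and 9.02% in WT, Ogn 7.86% in Calu-KO and 1.85% in WT, Fmod 1.57% in Calu-KO and 0.295% in WT, and Aspn 0.599% in WT. After rescaling, B4galt1 (-0.062), Gpc1 (-0.10), Ippk (-0.053) and Ugdh (-0.071) changed sign, as the median of all genes moved to -0.09. With 1 library left out, the sign depended on the library for B4galt1 (-0.098 to 0.19), Chsy1 (-0.027 to 0.67), Gpc1 (-0.12 to 0.13), Iars (-0.16 to 0.0075), Ippk (-0.062 to 0.12), Itgb1 (-0.075 to 0.030), Pcolce (-0.17 to 0.069), Sdc4 (-0.47 to 0.12) and Ugdh (-0.025 to 0.097). Where no filter was used, more genes were tested, and where a library was left out, its group was assumed to vary like the other; otherwise the cause was not tested. The planned count models, edgeR's quasi-likelihood test and DESeq2, were not run because the deposited values are FPKM; voom was added after seeing the data. With 2 libraries a group, depth limits Omd, Ecm2, Podn and Aspn, and the calls of the 5 members were lost without either WT replicate.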
